A study of Homo sapiens with 14 samples.

Results

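The genes described here are the nuclear transport receptors and the nucleoporins, 49 of the 20046 protein-coding genes of the Gencode 44 annotation. They were chosen by name: every protein-coding gene whose symbol begins with IPO, XPO, KPNA, KPNB, TNPO or NUP and a digit, together with CSE1L, TPR and RAN. C-to-U editing of RNA was measured in 14 libraries from HEK293T cells (HEK293XT in some labels), an immortal line from human embryonic kidney, fixed with methanol. In the RBFOX2 libraries a rabbit antibody against the splicing factor RBFOX2 was bound in the fixed cells, and a fusion of the cytidine deaminase APOBEC1 with a nanobody against rabbit IgG was added, so that cytosines near the antibody could be edited. Enzyme-only libraries had the fusion protein and no antibody, and Buffer-only libraries had neither. Each input, 1 ng or 100 pg of RNA, had 3 RBFOX2, 1 Enzyme-only and 3 Buffer-only libraries. All libraries came from the same cell line with no genetic change, and the study calls the replicates technical, so each test below measures the spread between slides of a single line. The Enzyme-only libraries have no replicate, and their values were not tested.

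Traffic through the nuclear pore rests on 2 sets of proteins. Importins and exportins of the importin beta family carry cargo, importin alpha adaptors link cargo with a classical nuclear localization signal to importin beta, and the GTPase RAN sets the direction by loading and unloading the carriers. Nucleoporins build the pore itself: outer and inner rings, a central channel of phenylalanine-glycine repeats, filaments on the cytoplasmic side and a basket on the nuclear side. RBFOX2 binds UGCAUG in RNA, in introns where it regulates splicing and also in 3′ UTRs.

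The sequences below show what a recorded edit near that motif looked like in these transcripts. For the 10 genes with a site within 50 nt of UGCAUG in at least 2 of the 3 RBFOX2 libraries of an input, the site of any RBFOX2 library nearest to the motif was taken, and given with 30 nt of the hg38 sense strand. NUP50 is left out because its window does not reach the motif. Capitals mark the motif, written TGCATG as in DNA, and each cytosine that was called as a site in an RBFOX2 library.
IPO7, chr11:9446513-9446542, + strand, 3′ UTR: cctctcttcctaaCTGCATGttgaaaaata
IPO9, chr1:201883247-201883276, + strand, 3′ UTR: gtggacagcaggaCTGCATGagaatagctg
KPNA4, chr3:160500981-160501010, − strand, 3′ UTR: taaCataaagatCttTGCATGaggtaaatC
KPNA5, chr6:116734370-116734399, + strand, 3′ UTR: tgtgtgtgttgaTGCATGcacacagaatga
NUP155, chr5:37290117-37290146, − strand, 3′ UTR: gtaagtgaTGCATGtctaaCaatttgtaCa
NUP205, chr7:135645509-135645538, + strand, coding sequence: gagtaCtaCttgttacatTGCATGcccacg
TNPO1, chr5:72893517-72893546, + strand, coding sequence: aatgtatcagTGCATGCaggtgagacttga
XPO1, chr2:61482516-61482545, − strand, 3′ UTR: caacaggtttaaCaaTGCATGcatCaattC
XPO5, chr6:43522359-43522388, − strand, 3′ UTR: cattaaCtctaaagcacatcTGCATGtcag
In IPO7 and IPO9 the edited cytosine was the base directly 5′ of the motif, in TNPO1 the base directly 3′ of it, and in KPNA5 the cytosine of the motif itself. The IPO7 site was called in 3 libraries, and each of the other sites nearest to the motif in 1 RBFOX2 library. The NUP205 site was also called in 1 Enzyme-only library.

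Edit sites in these genes were more frequent with the antibody than without enzyme. At 1 ng the 49 genes together held 275, 274 and 270 sites on their own strand in the RBFOX2 libraries, 227 in the Enzyme-only library, and 67, 78 and 73 in the Buffer-only libraries. The groups did not overlap, and the RBFOX2 mean was 3.76 ± 0.287 times the Buffer-only mean (error propagated from the SD of 3 libraries each). At 100 pg there were 124, 125 and 127 sites in the RBFOX2 libraries, 109 in the Enzyme-only library, and 64, 60 and 61 in the Buffer-only libraries, a ratio of 2.03 ± 0.0729. These ratios are not scaled for library size. The same ratio over the sites of all genes was 2.64 at 1 ng and 1.63 at 100 pg, and no test was run on the sum because the genes were chosen with earlier results known.

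**Figure D1:**
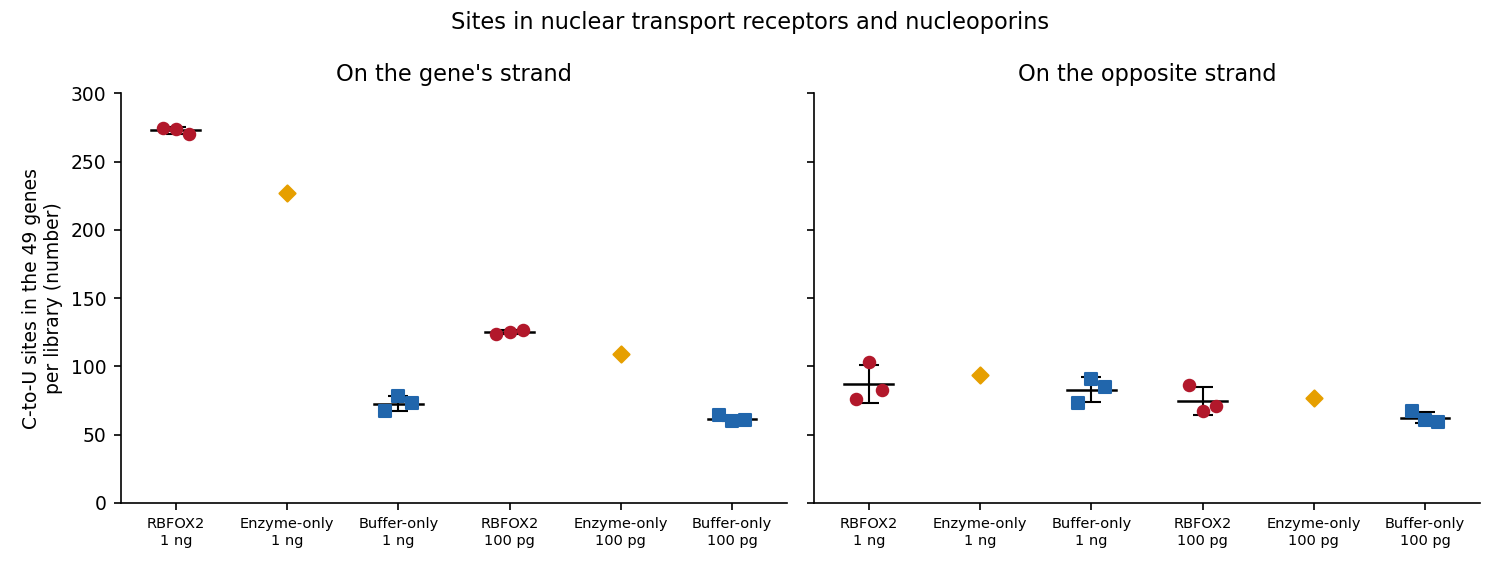
Number of C-to-U sites per library in the 49 genes, on the gene's own strand (left) and on the opposite strand (right). Each point is 1 library, and black lines show the mean and SD of 3 libraries. On the own strand the RBFOX2 libraries lie at 270 to 275 at 1 ng and the Buffer-only libraries at 67 to 78, while on the opposite strand the groups overlap.

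The opposite strand of the same genes served as a background. It held 76, 103 and 83 sites in the 1 ng RBFOX2 libraries, 94 in the Enzyme-only library, and 73, 91 and 85 in the Buffer-only libraries, so the groups overlapped. At 100 pg it held 67 to 86 sites in the RBFOX2 libraries and 59 to 67 in the Buffer-only libraries, with 77 in the Enzyme-only library. The library kit is not stated to keep strand, so reads of a gene and of an antisense partner could not be told apart by the counts alone.

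The transport genes took 0.874 ± 0.0324% of all sites on gene strands in the 1 ng RBFOX2 libraries (SD, n = 3), 0.834% in the Enzyme-only library and 0.613 ± 0.0200% in the Buffer-only libraries (SD, n = 3). At 100 pg the shares were 0.737 ± 0.00577% in RBFOX2 libraries, 0.728% in the Enzyme-only library and 0.591 ± 0.0328% in Buffer-only libraries (SD, n = 3 where given). Of the 49 genes, 42 to 44 had a site in each 1 ng RBFOX2 library, against 33 to 37 in each 1 ng Buffer-only library. KPNA7, an importin alpha gene, had no site in any library. Median coverage at member sites was 24 to 31 reads in the 1 ng RBFOX2 libraries and 17 to 25.5 reads in the 1 ng Buffer-only libraries. At 100 pg it was 38, 30 and 36 reads in the RBFOX2 libraries, 18 in the Enzyme-only library, and 23.5, 23.5 and 24 in the Buffer-only libraries, so RBFOX2 and Buffer-only did not overlap in coverage there, and the part of coverage in the 100 pg site ratio was not tested. With sites of at least 20 reads alone the 100 pg ratio was 2.60. In bulk RNA, a site can be called only where reads are deep enough, and more RNA of a gene and more editing per molecule cannot be told apart by the number of sites.

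APOBEC1 edits cytosines that follow A or U more readily than others. At 1 ng, 81.9 ± 2.07% of the member sites in RBFOX2 libraries followed A or U (SD, n = 3), 80.2% did so in the Enzyme-only library (95% Wilson interval 74.5 to 84.8%), and 49.8 ± 4.60% did so in Buffer-only libraries (SD, n = 3). At 100 pg the shares were 75.3 ± 2.46% in RBFOX2 libraries, 66.1% in the Enzyme-only library (56.8 to 74.3%) and 56.3 ± 6.41% in Buffer-only libraries. On the opposite strand at 1 ng, 58.1 ± 6.60% of sites followed A or U in RBFOX2 libraries and 56.7 ± 7.25% in Buffer-only libraries.

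Most of the gain lay in 3′ UTRs. At 1 ng these held 161, 139 and 155 member sites in RBFOX2 libraries, 113 in the Enzyme-only library, and 23, 34 and 33 in Buffer-only libraries. As a share of member sites that was 55.6 ± 4.22% with RBFOX2 and 41.0 ± 5.87% with Buffer-only (SD over 3 libraries). The Enzyme-only share was 49.8% (95% Wilson interval 43.3 to 56.2%). Coding sequence held 43, 54 and 49 sites in the RBFOX2 libraries and 17, 23 and 13 in the Buffer-only libraries. Introns held 58, 68 and 53 sites in the RBFOX2 libraries, 63 in the Enzyme-only library and 24, 16 and 21 in the Buffer-only libraries. At 100 pg the 3′ UTR counts were 81, 58 and 65 with RBFOX2, 37 with Enzyme-only and 28, 23 and 24 with Buffer-only, and RBFOX2 and Buffer-only did not overlap.

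By role, the import receptors of the importin beta family, the group with the most genes and the most exon, carried the most sites. At 1 ng the exportins and the importin alpha adaptors followed. These are plain counts, not divided by the number or length of genes. The 11 import receptors of the importin beta family held 68, 46 and 64 sites in the 1 ng RBFOX2 libraries, 60 in the Enzyme-only library and 9, 13 and 15 in the Buffer-only libraries. The 7 importin alpha adaptors held 35, 35 and 39 with RBFOX2, 23 with Enzyme-only and 4, 10 and 5 with Buffer-only. The 6 exportins held 52, 33 and 43 with RBFOX2, 37 with Enzyme-only and 14, 5 and 14 with Buffer-only. In each of these 3 groups every 1 ng RBFOX2 library was above every Buffer-only library.

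Among nucleoporins the 5 inner ring genes had the largest unscaled ratio, with 29, 47 and 26 sites in the 1 ng RBFOX2 libraries, 20 in the Enzyme-only library and 5, 5 and 7 in the Buffer-only libraries (ratio of means 6.0). NUP155 alone held 22, 18 and 14 of these RBFOX2 sites and 0, 1 and 2 of the Buffer-only sites. NUP35 (0, 9 and 4 against 1, 0 and 2) and NUP93 (2, 4 and 0 against 2, 1 and 0) overlapped, while NUP188 and NUP205 did not. The 3 basket genes held 15, 39 and 32 sites with RBFOX2, 24 with Enzyme-only and 8, 9 and 9 with Buffer-only. The 4 central channel genes held 23, 18 and 16 with RBFOX2, 17 with Enzyme-only and 6, 8 and 7 with Buffer-only, without overlap. All 26 positions of NUP62, which is among these 4 genes, also lie in other genes on the same strand, so its counts are uncertain. The 6 outer ring genes held 26, 36 and 19 with RBFOX2, 28 with Enzyme-only and 9, 14 and 8 with Buffer-only. The 3 genes of the cytoplasmic filaments held 18, 9 and 10 with RBFOX2, 11 with Enzyme-only and 6, 12 and 4 with Buffer-only. At 1 ng this group overlapped between conditions, as did the 2 pore membrane genes. At 100 pg the filament genes (8, 8 and 7 with RBFOX2 against 3, 2 and 2 with Buffer-only) did not overlap, nor did the inner ring and basket genes. The central channel (8, 7 and 4 against 7, 2 and 3), outer ring (17, 8 and 10 against 9, 9 and 10) and pore membrane genes overlapped there. All sites at 1 ng with RBFOX2, intronic ones included, were also divided by exon length. This gave 1.07 sites per kilobase for the basket genes, 0.851 for the inner ring and 0.302 for the cytoplasmic filaments. The carriers came to 0.703 for the exportins, 0.673 for the import receptors and 0.663 for the importin alpha adaptors. Intronic sites weigh in these values. TPR of the basket held 2, 10 and 6 of its 8, 15 and 11 sites in introns, so the order in exons alone was not determined.

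To ask which single genes differed beyond replicate spread, edgeR's quasi-likelihood test was run on site numbers for all genes, with libraries scaled by the trimmed mean of M values (TMM) and p-values adjusted by the Benjamini-Hochberg method. At 1 ng, 22 of the 49 genes had enough sites to be tested. Among them 2 were higher with RBFOX2 at an adjusted p below 0.05, against 0.837% of all 2508 genes tested, and 0 were lower, against 0.399% of all genes. At an unadjusted p below 0.05, 6 of the 22 were higher, against 11.2% of all genes, and 0 lower, against 5.34% of all genes. The median log2 fold change was 0.73 over the 22 genes and 0.20 over all genes tested. At 100 pg only 9 of the genes could be tested and 0 were called in either direction, also by DESeq2, and 0 passed an unadjusted p below 0.05. Over all 874 genes tested at 100 pg, 0.114% were called higher and 0% lower, and at an unadjusted p below 0.05 11.4% were higher and 2.52% lower.

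The gene with the largest fitted change was IPO7, an importin beta family receptor known to import ribosomal proteins and, with importin beta, linker histone H1 (ENSG00000205339, chr11:9384652-9448127, + strand). IPO7 had 18, 18 and 13 sites in the 1 ng RBFOX2 libraries, 19 in the Enzyme-only library, and 0, 1 and 0 in the Buffer-only libraries. RBFOX2 and Buffer-only did not overlap, and the Enzyme-only count was above all 3 RBFOX2 counts. Its fitted log2 fold change over Buffer-only was 4.04 ± 0.79 (SE, edgeR adjusted p = 0.0311). The edgeR test gives no standard error. Each SE printed with its fold changes is an approximation, the absolute log2 fold change divided by the square root of the test's F statistic. Leaving out Buffer-only replicate 2, which held its only Buffer-only site, gave 6.69, and leaving out replicate 1 or 3 gave 3.74 and 3.69. Because Buffer-only had a single site in 3 libraries, the fitted value depends on the prior count, and the plain ratio of 49 to 1 sites has an exact 95% counting interval of 8.39 to 1974. At 100 pg IPO7 had 3, 2 and 3 sites with RBFOX2, 1 with Enzyme-only and 0, 1 and 0 with Buffer-only.

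The other called gene was NUP155, a large scaffold nucleoporin of the inner ring (ENSG00000113569, chr5:37288137-37371106, − strand). NUP155 had 22, 18 and 14 sites in the 1 ng RBFOX2 libraries, 5 in the Enzyme-only library and 0, 1 and 2 in the Buffer-only libraries. Here the Enzyme-only count lay between the groups, below all 3 RBFOX2 counts. The log2 fold change was 2.78 ± 0.63 (SE, edgeR adjusted p = 0.0432), and the ratio of 54 to 3 sites has a counting interval of 5.84 to 90.0. Leaving out Buffer-only replicate 1, 2 or 3 gave NUP155 a log2 fold change of 2.42, 2.94 and 3.83. Its sites were spread over the transcript, with 14, 5 and 7 in the 3′ UTR and 7, 11 and 6 in coding sequence in the RBFOX2 libraries. At 100 pg NUP155 had 3, 5 and 6 sites with RBFOX2, 4 with Enzyme-only and 2, 2 and 1 with Buffer-only, without overlap between RBFOX2 and Buffer-only.

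These calls were not stable. Without Buffer-only replicate 1, 2 or 3, IPO7 had an edgeR adjusted p of 0.311, 0.183 and 0.118 and NUP155 of 0.311, 0.211 and 0.115. In these fits 0 of all 4531, 4426 and 4492 genes tested were called, and DESeq2 called 0 of 2508. The loss of calls was thus not particular to the transport genes. Without scaling for library size, 12 of the 22 genes were higher and 0 lower, 966 of all genes were higher and 6 lower (99.4% of calls higher, against 67.7% with TMM), and the median log2 fold change of all genes was 1.47.

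**Figure D2:**
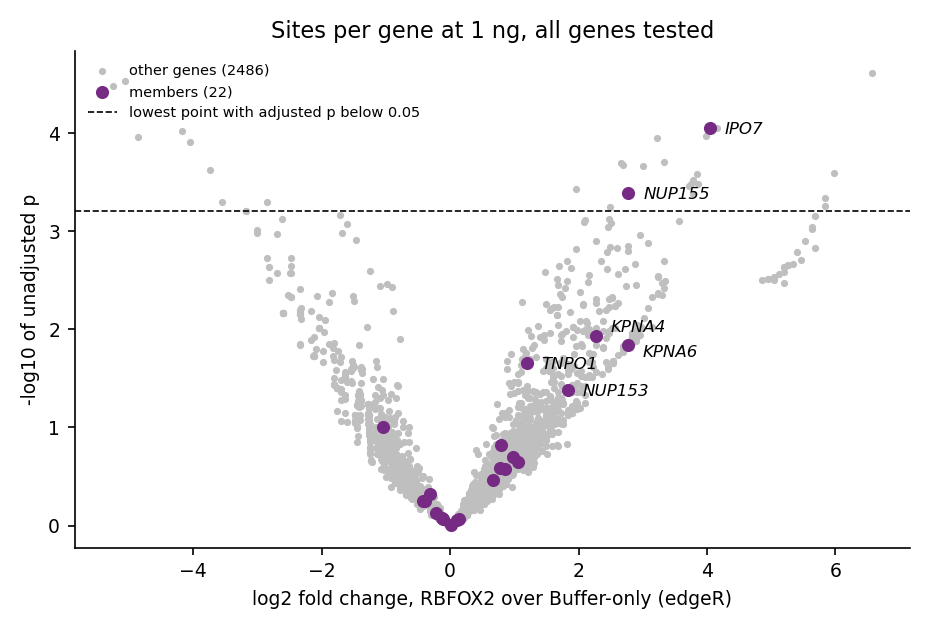
Log2 fold change of sites per gene, RBFOX2 over Buffer-only at 1 ng, against −log10 of the unadjusted p from edgeR, for the 2508 genes tested. Purple points are the 22 tested transport genes, and the dashed line marks the lowest point with an adjusted p below 0.05. IPO7 and NUP155 lie above the line, and 15 of the 22 (68.2%) lie to the right of 0, against 58.9% of all genes tested.

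Several other carriers had more sites with RBFOX2 in every 1 ng library but did not pass the test after adjustment. TNPO1, the transportin that imports hnRNP A1 (chr5:72816312-72916733, + strand), had 19, 11 and 22 sites with RBFOX2 at 1 ng, 13 with Enzyme-only and 3, 4 and 2 with Buffer-only. Its log2 fold change was 1.2 ± 0.48 (SE, edgeR adjusted p = 0.189). At 100 pg TNPO1 had 1, 2 and 8 sites with RBFOX2, 4 with Enzyme-only and 1, 2 and 3 with Buffer-only, and these groups overlapped. KPNA4, an importin alpha (chr3:160495007-160565571, − strand), had 7, 10 and 9 sites with RBFOX2, 5 with Enzyme-only and 1, 0 and 1 with Buffer-only (log2 fold change 2.27 ± 0.80, edgeR adjusted p = 0.137). At 100 pg KPNA4 had 7, 6 and 2 sites with RBFOX2, 2 with Enzyme-only and 0, 3 and 0 with Buffer-only. These groups overlapped, and the log2 fold change of 1.48 ± 0.95 did not pass (SE, edgeR adjusted p = 0.586). Nor did the 5.18 found without Buffer-only replicate 2, which held all its Buffer-only sites. The values without replicate 1 or 3 were 1.13 and 1.18.

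XPO1, the exportin that recognises leucine-rich nuclear export signals (chr2:61476032-61538741, − strand), had the most sites of the 49 genes over the 6 RBFOX2 libraries of both inputs, 78. XPO1 had 25, 8 and 19 sites in the 1 ng RBFOX2 libraries, 15 in the Enzyme-only library and 2, 3 and 7 in the Buffer-only libraries. The lowest RBFOX2 count and the highest Buffer-only count were 1 site apart. The log2 fold change of 0.80 ± 0.53 did not pass (SE, edgeR adjusted p = 0.478). Nor did the 0.68, 0.80 and 1.61 found without Buffer-only replicate 1, 2 and 3. At 100 pg XPO1 had 7, 7 and 12 sites with RBFOX2, 6 with Enzyme-only and 4, 1 and 3 with Buffer-only (log2 fold change 0.93 ± 0.67, edgeR adjusted p = 0.625). It is also a long target, with 23843 nt of annotated exon. Its sites at 1 ng with RBFOX2, intronic ones included, came to 0.727 per kilobase of exon, against a median of 0.578 over the 49 genes. On the same count CSE1L, the exportin that returns importin alpha to the cytoplasm, had 2.28 per kilobase and IPO7 had 2.26. Of these sites 4, 3 and 1 were intronic in CSE1L and 2, 1 and 1 in IPO7. The highest density, 2.5 per kilobase, was that of NUP62CL, a short gene named for its likeness to NUP62, with 0, 5 and 9 sites with RBFOX2, 2 with Enzyme-only and 0, 0 and 0 with Buffer-only.

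The remaining carriers among the most edited genes gave smaller counts. CSE1L had 10, 11 and 5 sites with RBFOX2 at 1 ng, 5 with Enzyme-only and 4, 1 and 1 with Buffer-only (log2 fold change 0.78 ± 0.67, edgeR adjusted p = 0.606). Leaving out Buffer-only replicate 1, 2 or 3 gave 1.93, 0.63 and 0.61, none passing. KPNB1, importin beta itself, had 7, 5 and 8 with RBFOX2, 4 with Enzyme-only and 1, 0 and 7 with Buffer-only. A single Buffer-only library thus reached the RBFOX2 range (log2 fold change 0.014 ± 0.76, edgeR adjusted p = 0.991). Leaving out that library gave 2.41, and leaving out Buffer-only replicate 1 or 2 gave −0.17 and −0.39, none passing. At 100 pg the KPNB1 groups did not overlap, with 6, 7 and 8 sites with RBFOX2, 5 with Enzyme-only and 1, 4 and 4 with Buffer-only, but the fit did not pass either (log2 fold change 0.45 ± 0.67, edgeR adjusted p = 0.824). IPO9, an importer of histones H2A and H2B, had 9, 4 and 7 sites with RBFOX2 at 1 ng, 8 with Enzyme-only and 1, 1 and 2 with Buffer-only. KPNA6, another importin alpha, had 7, 8 and 5 sites with RBFOX2, 2 with Enzyme-only and 1, 0 and 0 with Buffer-only (log2 fold change 2.77 ± 1.01, edgeR adjusted p = 0.153). Leaving out Buffer-only replicate 1, which held its only Buffer-only site, gave 5.42. Leaving out replicate 2 or 3 gave KPNA6 2.43 and 2.41, and none of these fits passed. Of its 42 positions 28 also lie in a noncoding gene on the same strand, so its count is uncertain. At 100 pg RBFOX2 and Buffer-only overlapped in CSE1L (4, 3 and 7 against 5, 3 and 2) and IPO9 (6, 2 and 5 against 2, 4 and 2). They also overlapped in KPNA6 (0, 3 and 4 against 2, 1 and 1). The 100 pg Enzyme-only counts of these genes were 3, 9 and 8.

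In the nuclear basket, NUP153 had 4, 15 and 9 sites with RBFOX2 at 1 ng, 13 with Enzyme-only and 0, 2 and 1 with Buffer-only (log2 fold change 1.84 ± 0.83, edgeR adjusted p = 0.275). Leaving out Buffer-only replicate 1, 2 or 3 gave 1.49, 2.91 and 1.98, none passing. At 100 pg NUP153 had 1, 7 and 0 sites with RBFOX2, 0 with Enzyme-only and 1, 2 and 0 with Buffer-only, and these groups overlapped. NUP50, which works with importin alpha on the nuclear side, had 3, 9 and 12 with RBFOX2, 4 with Enzyme-only and 1, 2 and 3 with Buffer-only, where the lowest RBFOX2 count equalled the highest Buffer-only count. At 100 pg the NUP50 groups did not overlap, with 6, 5 and 6 sites with RBFOX2, 2 with Enzyme-only and 1, 0 and 2 with Buffer-only (log2 fold change 1.66 ± 0.84, edgeR adjusted p = 0.369). Leaving out Buffer-only replicate 1, 2 or 3 gave 1.83, 1.34 and 2.77, none passing. TPR, the coiled-coil protein of the basket, had 8, 15 and 11 sites with RBFOX2 at 1 ng, 7 with Enzyme-only and 7, 5 and 5 with Buffer-only. Scaled for library size, the TPR log2 fold change was −0.31 ± 0.42 (SE, edgeR adjusted p = 0.767), and without scaling it was 0.98. At 100 pg TPR had 3, 14 and 7 sites with RBFOX2, 1 with Enzyme-only and 3, 5 and 3 with Buffer-only, and these groups overlapped. A difference between TPR and the other basket genes was not tested.

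Of the other ring genes, NUP205 of the inner ring had 3, 14 and 6 sites with RBFOX2 at 1 ng, 9 with Enzyme-only and 1, 2 and 2 with Buffer-only. NUP133 of the outer ring had 9, 12 and 4 with RBFOX2, 7 with Enzyme-only and 2, 7 and 2 with Buffer-only, and these groups overlapped. KPNA5, whose site lies inside the motif shown above, had 3, 3 and 6 sites with RBFOX2, 5 with Enzyme-only and 0, 0 and 1 with Buffer-only. RAN itself had only 2, 4 and 4 sites with RBFOX2, 2 with Enzyme-only and 2, 0 and 0 with Buffer-only, in a short gene with 4667 nt of exon. For genes that edgeR could not test, such as KPNA5 and RAN, an exact permutation test of 3 against 3 libraries cannot go below p = 0.1, two-sided, and gave 0.1 for KPNA5 and 0.2 for RAN. KPNA1, an importin alpha, had 11, 4 and 3 sites with RBFOX2, 3 with Enzyme-only and 1, 2 and 1 with Buffer-only (exact permutation p = 0.1). XPO5, the exportin of precursor miRNAs, had 4, 2 and 5 sites with RBFOX2, 3 with Enzyme-only and 2, 0 and 2 with Buffer-only, and these groups overlapped. At 100 pg RBFOX2 and Buffer-only overlapped in NUP205, NUP133, KPNA5, KPNA1 and XPO5, and did not overlap in RAN. KPNA1 had 3, 3 and 0 sites there with RBFOX2, 3 with Enzyme-only and 2, 4 and 5 with Buffer-only. RAN had 3, 2 and 2 with RBFOX2, 1 with Enzyme-only and 1 in each Buffer-only library.

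**Figure D3:**
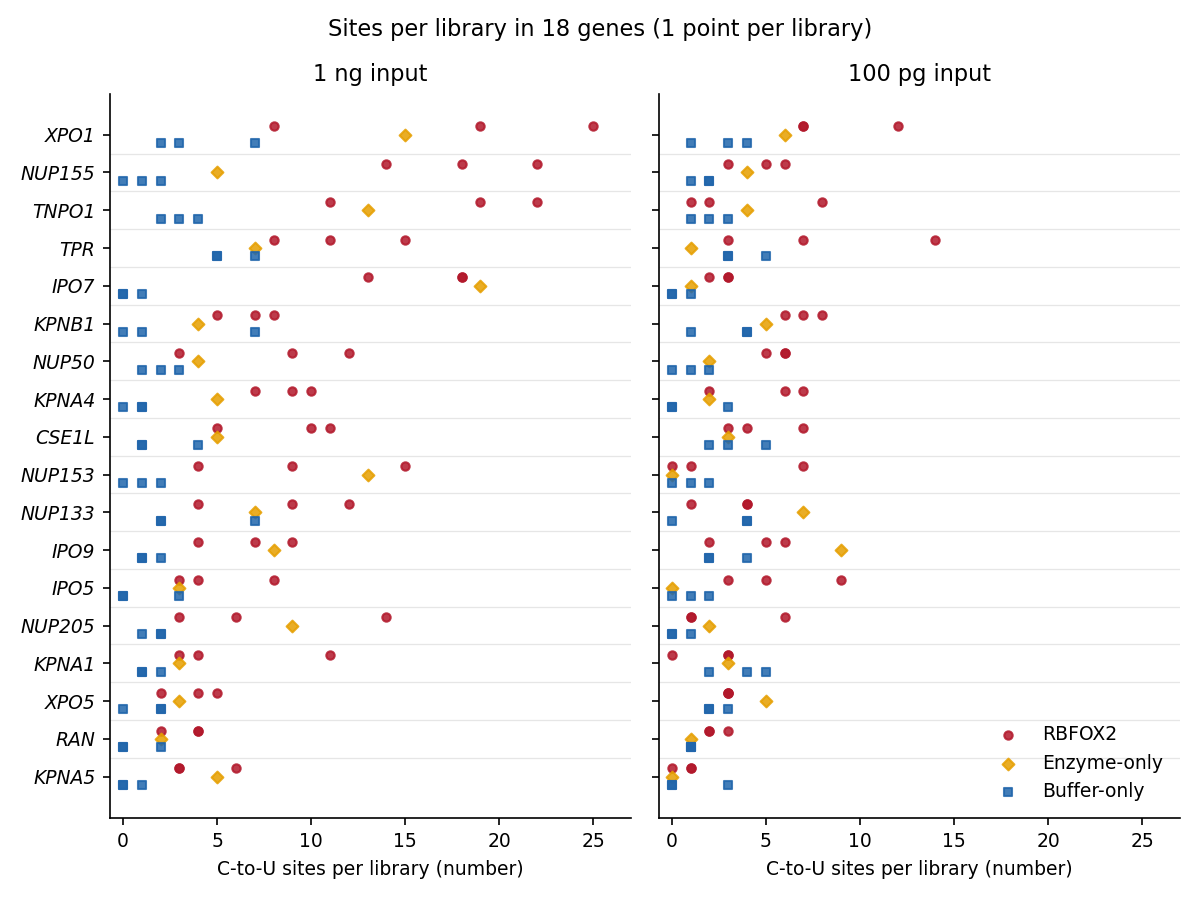
Number of C-to-U sites per library in 18 genes, ordered by their sites in the 6 RBFOX2 libraries, at 1 ng (left) and 100 pg (right). Each point is 1 library: red circles RBFOX2, orange diamonds Enzyme-only, blue squares Buffer-only. IPO7 shows an Enzyme-only count of 19 beside RBFOX2 counts of 13 to 18 at 1 ng, and NUP155 an Enzyme-only count of 5 beside RBFOX2 counts of 14 to 22.

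Counted over every gene with a site at 1 ng, 20 of 48 transport genes had all 3 RBFOX2 libraries above all 3 Buffer-only libraries (41.7%), against 16.5% of all genes, and 0 had them all below, against 0.396% of all genes. Genes with more sites separate more easily: among the genes with enough sites for edgeR, 13 of 22 transport genes (59.1%) and 49.5% of all genes did so. At 100 pg, 10 of 48 transport genes were above without overlap (20.8%), against 4.79% of all genes, and 0 were below, against 0.65% of all genes. Within the genes that edgeR tested at 100 pg the counts were 3 of 9 (33.3%) and 25.2% of all genes. The share in the tested genes was thus near that of all genes. A test of whether the RBFOX2 difference differed between inputs called 0 of 2197 genes. The lowest adjusted p of the 21 transport genes in it was 0.833 (edgeR). The test took all libraries as independent, and whether libraries of both inputs came from the same slide's RNA was not established.

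A further 31 genes of nuclear transport that the names do not cover were counted alongside, among them RAN regulators, mRNA export factors and other pore proteins. They held 121, 134 and 154 sites in the 1 ng RBFOX2 libraries, 114 in the Enzyme-only library and 43, 46 and 52 in the Buffer-only libraries. Of the 11 that edgeR could test at 1 ng, 1 was higher and 0 were lower. This was TMEM33, a membrane protein of the endoplasmic reticulum and nuclear envelope, with 12, 13 and 14 sites with RBFOX2, 17 with Enzyme-only and 0, 0 and 1 with Buffer-only (edgeR adjusted p = 0.0409).

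The next question was whether sites lay near the RBFOX2 motif. Within the exons of the 49 genes, 2.69% of 89174 cytosines lie within 50 nt of the centre of a UGCAUG on the transcript strand, and in their 3′ UTRs 3.09% do so. At 1 ng, 21, 19 and 20 member sites were that close in the RBFOX2 libraries, 10 in the Enzyme-only library and 1, 5 and 1 in the Buffer-only libraries. As shares these were 7.33 ± 0.358% with RBFOX2 (SD, n = 3), 4.41% with Enzyme-only (95% Wilson interval 2.41 to 7.92%) and 3.09 ± 2.88% with Buffer-only (SD, n = 3). The highest Buffer-only library reached 6.41% on 5 sites, just under the lowest RBFOX2 library at 6.93%, and the difference of 4.24 ± 2.90 percentage points rests on few sites. At 100 pg there were 6, 7 and 4 such sites with RBFOX2, 4 with Enzyme-only and 2, 1 and 2 with Buffer-only, or 4.53 ± 1.25% with RBFOX2, 3.67% with Enzyme-only (1.44 to 9.06%) and 2.69 ± 0.890% with Buffer-only. Over the sites of all genes the 1 ng shares were 6.08 ± 0.177% with RBFOX2, 2.86% with Enzyme-only and 2.47 ± 0.154% with Buffer-only.

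**Figure D4:**
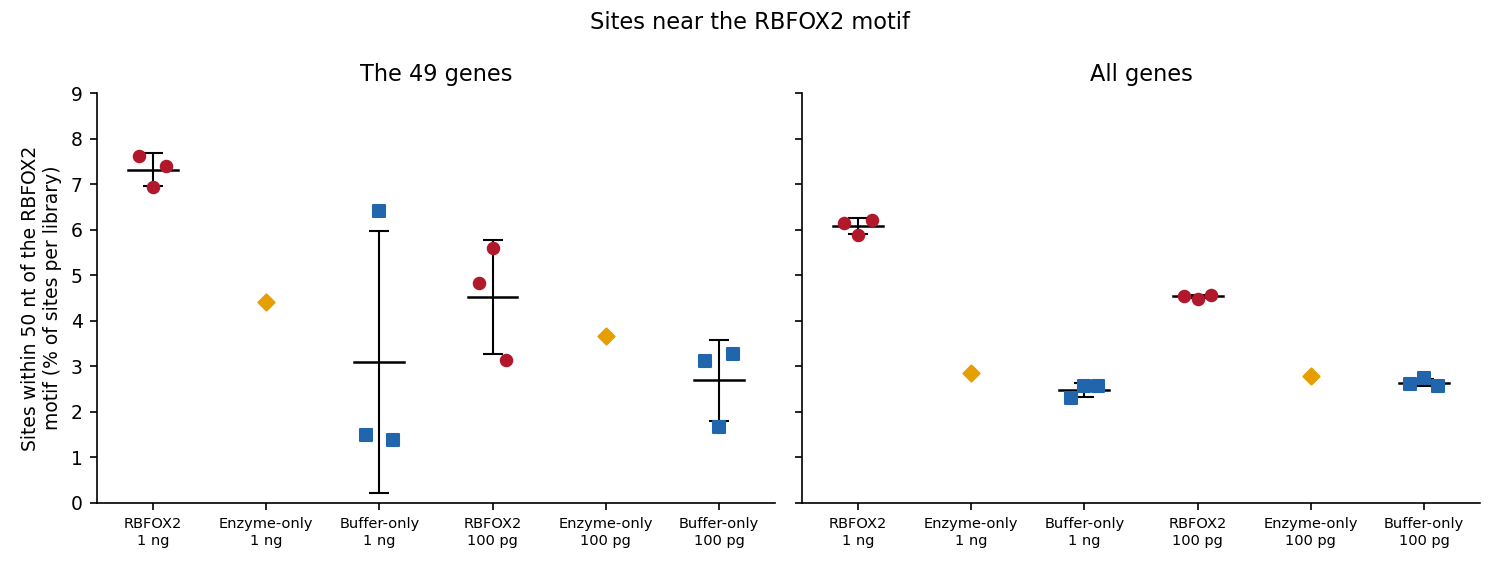
Percent of sites within 50 nt of the centre of UGCAUG on the same strand, for the 49 genes (left) and for all genes (right). Each point is 1 library, and black lines show the mean and SD of 3 libraries. In the 49 genes the 1 ng RBFOX2 libraries lie at 6.93 to 7.64%, with 1 Buffer-only library at 6.41% and the other 2 below 2%, while over all genes the replicates lie close together.

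Of the 49 genes, 25 had a motif-near site in some library, and 10 had one in at least 2 of the 3 RBFOX2 libraries of an input. KPNA4 had the most, with 3, 5 and 3 in the 1 ng RBFOX2 libraries, 2 in the Enzyme-only library and 0, 0 and 1 in the Buffer-only libraries, and its 3′ UTR of 9009 nt carries 4 copies of the motif. TNPO1, with 9 copies in its 3′ UTR, had 4, 1 and 1 with RBFOX2, 1 with Enzyme-only and 0 in each Buffer-only library. NUP155, with 3 copies in its 3′ UTR, had 1, 2 and 3 with RBFOX2, and 0 in the Enzyme-only library and in each Buffer-only library. XPO1 had 5, 0 and 1 with RBFOX2, 0 with Enzyme-only and 0, 1 and 0 with Buffer-only, so that a single library held most of them. IPO7, which has a single copy in its 3′ UTR, had only 2, 2 and 1 of its 18, 18 and 13 sites near a motif, against 1 of 19 with Enzyme-only.

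Few single positions were called again in another library. The 793 positions called in the 1 ng RBFOX2 libraries comprised 771 seen in 1 of the 3 libraries, 18 seen in 2 and 4 seen in all 3. Of the same 793 positions, 38 were also called in a 100 pg RBFOX2 library, 22 in the 1 ng Enzyme-only library and 9 in a 1 ng Buffer-only library. At 100 pg 3 of 373 RBFOX2 positions were seen in 2 libraries and 0 in all 3. A site can be called on a single edited read, so at this depth a position that was not called is not shown to be unedited.

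The 4 positions seen in all 3 RBFOX2 libraries at 1 ng were of 2 kinds. The IPO7 cytosine next to the motif, chr11:9446526, was edited in 2 of 118, 2 of 82 and 2 of 107 reads and was called in no other library of either input. The TNPO1 position chr5:72914330 in the 3′ UTR was edited in 2 of 66, 1 of 63 and 1 of 48 reads and was also called in no other library. Both are at low fractions and follow an A. In contrast, the KPNA1 position chr3:122426105 was called in 11 of the 14 libraries, with 2 of 12, 5 of 12 and 9 of 30 reads in the 1 ng RBFOX2 libraries, 4 of 11 in the Enzyme-only library, and 6 of 25 and 3 of 15 in 2 Buffer-only libraries. The fourth, chr6:43539074 in an XPO5 intron, was called in 8 libraries including 2 Buffer-only libraries, and it lies in a pseudogene on the same strand, so that its gene is uncertain. The TNPO1 and KPNA1 windows are shown to set a position called with RBFOX2 alone beside one that the controls share, with the called cytosine in capitals.
TNPO1, chr5:72914316-72914345, + strand, called in RBFOX2 libraries only: tttgtatgatgtgaCataatagatgtgaat
KPNA1, chr3:122426091-122426120, − strand, called in Buffer-only libraries too: aaaaaaaactaaggaCgaaaaaaccctcca
The TNPO1 window has its called base at −432.5 nt from the nearest motif centre and the KPNA1 window at −4159.5 nt, where negative is 5′ of the motif.

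**Figure D5:**
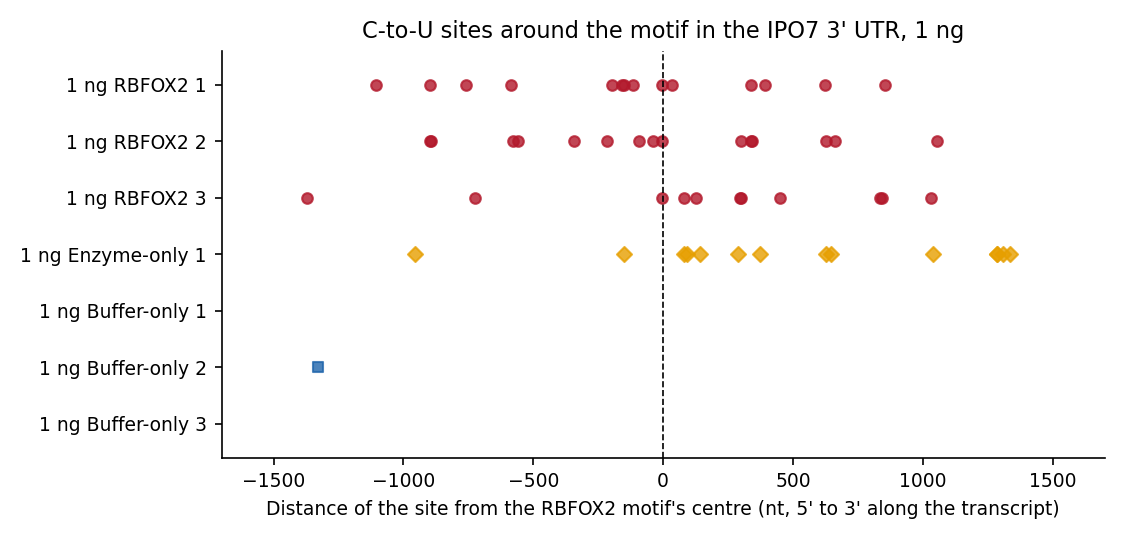
Position of each C-to-U site of IPO7 relative to the centre of UGCAUG in its 3′ UTR, in nt along the transcript, for the 7 libraries of the 1 ng input. Each point is 1 site and each row 1 library, and sites farther than 1700 nt are not shown. The 3 RBFOX2 rows share a point next to the motif that the Enzyme-only row lacks, while their other sites and the 14 Enzyme-only sites in range spread over the 3′ UTR.

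The authors also deposited confident clusters, stretches with edit clusters in all 3 replicates, and a cleaned list. Their methods state that Buffer-only clusters were subtracted, and do not state this for Enzyme-only clusters. The cleaned 1 ng RBFOX2 list had 776 clusters, of which 11 lay in transport genes, 1.42% of the 775 in annotated genes. These were 3 in TNPO1, 2 in IPO7 and 1 each in KPNA1, KPNA4, NUP50, NUP205, RAN and XPO5. The 1 ng Enzyme-only library also had a cluster at those of KPNA1, NUP50, NUP205 and XPO5. It had one too at the IPO7 cluster that starts at chr11:9446808 and the TNPO1 cluster that starts at chr5:72913285. It had none at the other clusters of IPO7 and TNPO1 or at those of KPNA4 and RAN. The cleaned 100 pg list had 214 clusters, of which 2 lay in transport genes, in IPO5 and in NUP133. The Buffer-only lists, with 250 clusters at 1 ng and 102 at 100 pg, had 0 in transport genes. These genes took 0.613% of Buffer-only sites on gene strands at 1 ng and 0.591% at 100 pg. At such shares lists this short would hold few or none, and a difference between the lists was not tested. No transport gene had a confident cluster at both inputs, but only 2 clusters at 100 pg could have shown one. The share over all genes was not counted.

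In 3 of the 11 clusters at 1 ng, those of IPO7, KPNA4 and NUP205, an RBFOX2 site lay within 50 nt of UGCAUG, against 20.2% of the 776 clusters, and 0 of the 2 at 100 pg had one, against 13.6% of 214. The IPO7 cluster at chr11:9446508-9446552 held 1 site in each 1 ng RBFOX2 library and none in any other library. The KPNA4 cluster at chr3:160500963-160501022 held 1, 3 and 2 sites in the 1 ng RBFOX2 libraries and 2 sites in 100 pg RBFOX2 replicate 2, with none in any Enzyme-only or Buffer-only library. The KPNA1 cluster rests on the position described above, which 4 Buffer-only libraries also carried. It remained in the list after the authors' subtraction of Buffer-only clusters. At 1 ng, Buffer-only replicates 1 and 2 had a cluster there and replicate 3 had none, and the list of confident 1 ng Buffer-only clusters did not hold it. The XPO5 cluster carries another gene's name in the authors' list.

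The IPO5 cluster at 100 pg held 4, 1 and 2 sites in the RBFOX2 libraries. IPO5, which imports ribosomal proteins and histones, had 3′ UTR sites at chr13:98022988 in 11 of 131 and 5 of 41 reads in 100 pg RBFOX2 replicates 1 and 3, and at chr13:98023005 in 9 of 103 and 2 of 85 reads in replicates 1 and 2. Neither was called in an Enzyme-only or Buffer-only library, and neither at 1 ng. At 1 ng the gene had 8, 3 and 4 sites with RBFOX2, 3 with Enzyme-only and 0, 3 and 0 with Buffer-only, and these groups overlapped. At 100 pg it had 9, 3 and 5 sites with RBFOX2, 0 with Enzyme-only and 0, 2 and 1 with Buffer-only. The positions named lay at −1017.5 and −1000.5 nt from the nearest UGCAUG.

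FLARE clusters called within single libraries followed the sites. The 49 genes held 220, 216 and 214 clusters in the 1 ng RBFOX2 libraries, 194 in the Enzyme-only library and 65, 71 and 69 in the Buffer-only libraries, a ratio of 3.17 ± 0.149. At 100 pg they held 96, 106 and 105 with RBFOX2, 96 with Enzyme-only and 63, 59 and 61 with Buffer-only, a ratio of 1.68 ± 0.106.

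Counted over the whole genome at 1 ng, libraries held 40162 to 42589 called sites with RBFOX2, 38007 with Enzyme-only and 20330 to 22543 with Buffer-only. At 100 pg they held 26554 to 27437 with RBFOX2, 24829 with Enzyme-only and 18650 to 21140 with Buffer-only. No replicate stood apart from its group in this number, and the reads sequenced per library were not compared. Edit sites are no measure of expression. In 6 genes of differentiated kidney 0 sites were found in any library, and markers of blood, endothelium and hepatocytes were at 0 as well, while 1 of 3 neuronal markers, SYT1, held 0 to 5 sites per library and 1 of 3 fibroblast markers, COL1A1, held 0 to 1, with the other markers of both types at 0.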

How the data were processed

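The RNA was sequenced by the authors from methanol-fixed HEK293T cells with a low-input kit. Per the labels, reads were trimmed with cutadapt and aligned to hg38 with STAR 2.4.0. The authors called C-to-U sites with SAILOR and edit clusters with FLARE, and kept clusters shared by 3 replicates as confident ones. The deposited site lists give, for each site, a SAILOR score, the count of edited reads and the coverage, the read depth at the site, which was at least 5. The deposited cluster tables give a FLARE score and the edit fraction of each cluster, and the lists of confident clusters give the authors' mean coverage signal.

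Here sites and clusters were assigned to every Gencode 44 gene on their strand and in whose span they lie, so a site in overlapping genes counts for each. All sites had a C on their strand of hg38 (100%). A site was near the motif when the centre of UGCAUG lay within 50 nt on the same strand. Sites per gene were tested with edgeR 4.0.16 in R 4.3.3 (quasi-likelihood, TMM, filterByExpr with a minimum count of 3 and a minimum total of 5, Benjamini-Hochberg over all genes, threshold 0.05), RBFOX2 against Buffer-only at each input. The code was tested on simulated data. The count minimum is below edgeR's default because the default leaves few of these genes. DESeq2 1.42.0, other scalings and filters, a replicate block, exonic sites, stricter coverage and scores, and leaving out each library were alternatives.

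Genes, lists and tests were chosen with earlier results of these data known. Values are printed for the 12 genes with the most sites in the RBFOX2 libraries, every gene called, every gene with a confident cluster or with a site near the motif in at least 2 of 3 RBFOX2 libraries of an input, and XPO1; positions are printed when called in all 3 RBFOX2 libraries of an input and in no Buffer-only library of it. KPNA6, NUP62CL and the KPNA1, XPO5 and IPO5 positions were described after their values were seen. Intervals cover counting error only, and reads without molecular identifiers are not independent molecules.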

Additional observations from a re-analysis of the deposited data

How the results depend on the processing

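The count of transport genes called higher at 1 ng was 2 in the analysis reported. It remained 2 without a count minimum, with each site given to 1 gene, with at least 10 reads and without any single RBFOX2 replicate. It was 1 with library totals and no TMM, 12 without scaling, and 0 with DESeq2, with the default count minimum (1 transport gene tested), with exonic sites alone and with a SAILOR score of at least 0.9. Leaving out single replicates of either group, it ranged from 0 to 2. With the replicate block it was 0. The block stands for a shared number only, since the deviations of libraries with the same number were uncorrelated (r of −0.0346 to −0.00686 over 2508 genes at 1 ng). At 100 pg 0 genes were called in either direction under every alternative that tested any (the default minimum tested 0 there), and at 1 ng 0 were called lower.

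Over its alternatives the edgeR adjusted p of IPO7 ranged from 0.000198 to 0.318 and that of NUP155 from 0.00103 to 0.318, both with positive fold changes throughout. The TPR log2 fold change turned positive without scaling (0.98), without a count minimum (0.059), with a score of at least 0.9 (0.38) and without Buffer-only replicate 1 (0.074), and leaving out single replicates gave −0.50 to 0.074. The KPNB1 log2 fold change at 1 ng, 0.014, turned negative with library totals (−0.22), with each site given to 1 gene (−0.026), with exonic sites (−0.088) and with at least 10 reads (−0.068), and leaving out single replicates gave −0.39 to 2.41. Where another scaling was used at 1 ng, the median of all genes was −0.04 with library totals and 1.47 without scaling, against 0.20, and the calls over all genes were 18 higher and 22 lower with library totals, against 21 higher and 10 lower. Without a count minimum they were 100 and 1, with the default minimum 19 and 15, and DESeq2, the replicate block, exonic sites alone and the higher score called 0 genes. Without single replicates they ranged from 0 to 71 higher and 0 to 15 lower. At 100 pg, 93 of all genes were higher without scaling and 8 with exonic sites, against 1.

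The ratio of sites at 1 ng was 4.08 with exonic sites and 4.22 with a score of at least 0.9. At 100 pg it was 2.33 with exonic sites, 2.29 with at least 10 reads, 2.60 with at least 20 reads and 2.60 with a score of at least 0.9. The ratio of clusters at a FLARE score of at least 0.99 was 2.37 at 1 ng and 1.57 at 100 pg. The motif share difference at 100 pg was 3.61 percentage points with at least 20 reads, 6.32 within 100 nt and 8.19 within 200 nt. Leaving out single replicates gave site ratios of 3.62 to 3.90 at 1 ng and 2.01 to 2.07 at 100 pg, cluster ratios of 3.10 to 3.23 and 1.65 to 1.73, and motif share differences of 3.37 to 5.89 points at 1 ng and 1.30 to 2.53 points at 100 pg. The causes were not tested.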
